A study of Mus musculus with 23 samples.

Results

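Mice induced to delete the mineralocorticoid receptor gene in the renal tubule and fed little potassium (KO-LK, n = 6) were compared with control mice on normal potassium (CT-NK, n = 5). These are 11 of the 23 libraries of a study of RNA from connecting tubule and cortical collecting duct, dissected from mouse kidneys, and they were chosen by their labels alone. Animals of every group carried the alleles Pax8-rtTA, TRE-LC-1 and MRflox/flox. Knockout mice drank doxycycline (2 mg/ml, sweetened with 5% sucrose) over 2 weeks and then spent 2 weeks without it on a rescue diet, while control mice received the sucrose alone. The low or normal potassium diet was then eaten for 4 days. The remaining groups were knockout mice on normal potassium (KO-NK, n = 6) and control mice on high potassium (CT-HK, n = 6). KO-LK and CT-NK therefore differ in receptor deletion, doxycycline exposure and diet together, and the parts these play cannot be told apart from this comparison alone. Pax8 is active along the whole tubule, so the deletion is not restricted to the segment that was dissected, and the labels give no age, sex or strain and do not state whether control mice ate the rescue diet. Replicates are numbered, but nothing says whether each was 1 animal. The p-values here therefore describe only how far these libraries scatter, which may be technical.

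The mineralocorticoid receptor is a nuclear receptor that aldosterone activates in the connecting tubule and collecting duct. Principal cells there take up sodium through the epithelial sodium channel and secrete potassium, and intercalated cells move acid and base. The receptor induces the kinase Sgk1, which restrains the ubiquitin ligase Nedd4l and so keeps the sodium channel at the cell surface. A low-potassium diet calls for the opposite of secretion, namely retention of potassium, in which the proton-potassium pump of intercalated cells takes part.

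Depth was 18712352 to 29947956 estimated counts in the KO-LK libraries and 20615077 to 28140420 in the CT-NK libraries. Levels are given as CPM, a gene's count relative to its library's total after TMM, a scaling that sets the bulk of genes level between libraries. The libraries were not equally pure. The 26 proximal tubule markers, transporters and enzymes of an upstream segment, summed to 702 to 2420 CPM in KO-LK and to 900 to 25933 CPM in CT-NK, where replicate 1 (9574), replicate 4 (11803) and replicate 5 (25933) stood above every KO-LK library. All 26 had a negative log2 fold change (median -2.88, and -1.41 without CT-NK replicates 4 and 5), none passed the test, and none was at 0 in any of the 11 libraries. The 11 thick ascending limb markers summed to 1389 to 4084 CPM in KO-LK and 880 to 2331 CPM in CT-NK. The mitochondrial chromosome took 7.93% to 13.3% of counts in KO-LK and 10.8% to 19.9% in CT-NK. KO-LK replicates 1, 3 and 6 and CT-NK replicates 2 and 4 also held over 2500 CPM, before TMM scaling, on olfactory and vomeronasal receptor genes. Results are also given for many genes whose call changed without the chemosensory-rich libraries or without CT-NK replicates 4 and 5. The same holds for proximal tubule and thick ascending limb markers as covariates. A call given without such results did not necessarily hold in these settings. The part that these properties play was not otherwise tested, and in bulk RNA fewer cells of a type and less RNA per cell cannot be told apart. None of the 19 principal cell, 15 alpha intercalated or 12 beta intercalated markers was at 0 in any of the 11 libraries. The same held for the 26 proximal tubule and 17 leukocyte markers, so detection alone does not show which cells were dissected. Principal cell markers summed to 10856 to 13364 CPM in KO-LK and 7494 to 14155 CPM in CT-NK.

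**Figure D1:**
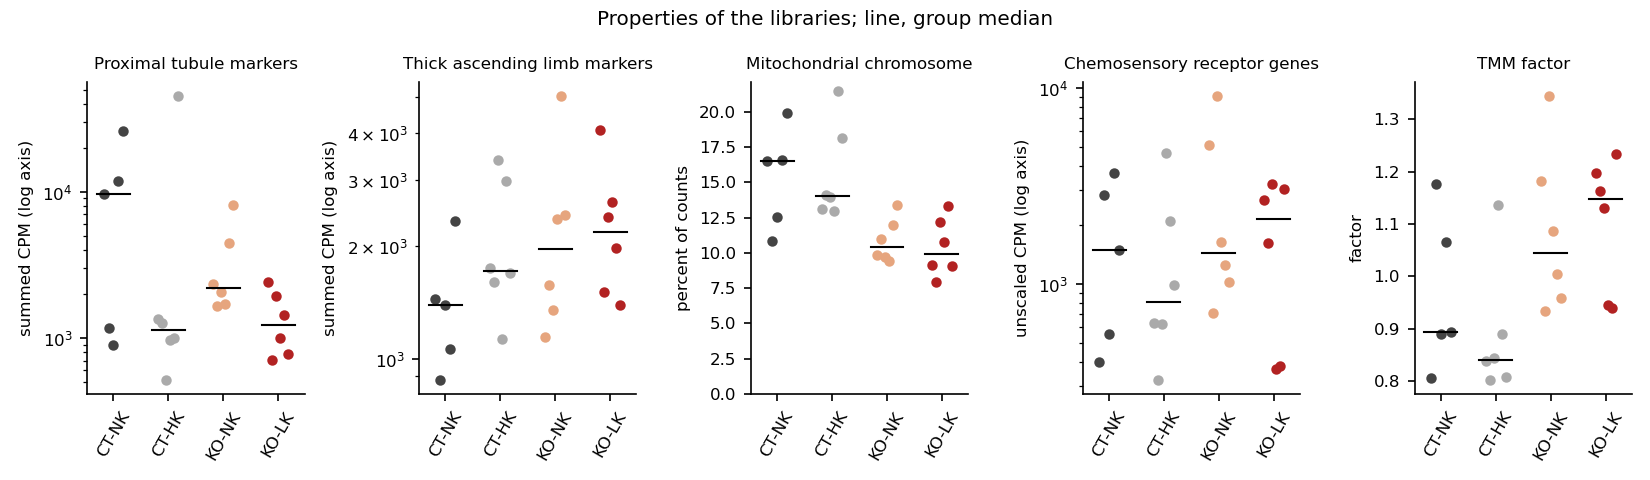
Properties of all 23 libraries by group. From left to right, the vertical axes give the summed CPM of proximal tubule markers and of thick ascending limb markers (log axes), the percent of counts on the mitochondrial chromosome, the CPM on chemosensory receptor genes before TMM scaling (log axis) and the TMM factor. Each point is a library and each line a group median. Proximal tubule markers span 900 to 25933 CPM in CT-NK but 702 to 2420 CPM in KO-LK.

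The deleted gene encodes the receptor itself. In replicates 1 to 5 of CT-NK the level of Nr3c2 was 120.05, 117, 151, 84.3 and 66.6 CPM, and in replicates 1 to 6 of KO-LK it was 44.5, 34.2, 44.6, 74.1, 68.4 and 59.9 CPM (ENSMUSG00000031618, GRCm38 chromosome 8, 76899442 to 77245012, plus strand). KO-LK replicates 4 and 5 lay above CT-NK replicate 5, so the groups overlapped. The means differed by -0.99 on the log2 scale (SE 0.22, adjusted p = 0.0134, edgeR quasi-likelihood test with Benjamini-Hochberg adjustment), a 1.99-fold fall. Values in brackets after a gene are its log2 fold change of KO-LK over CT-NK, with SE and adjusted p from the same test. Without CT-NK replicate 3 the value was -0.84 (adjusted p = 0.055), and on log2(TPM + 1), where TPM are the deposited length-scaled values without TMM, it was -0.23 (adjusted p = 0.542, limma). The floxed part is not named in the labels, and counts over the whole gene also take in any transcript that is left after deletion.

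Across the 25829 genes tested, 528 passed an adjusted p of 0.05 in KO-LK against CT-NK, which is 2.04% of genes tested. Of these, 236 rose (0.914% of genes tested) and 292 fell (1.13%), and 257 changed by 2-fold or more (0.995%), 134 upward (0.519%) and 123 downward (0.476%). In 393 of the 528 the libraries of the groups did not overlap. Over all genes, every KO-LK library lay above every CT-NK library for 1.01% and below for 1.46%. These shares are the background for the counts of list members given below. The median log2 fold change over all genes was -0.04. Higher calls made up 44.7% of the 528, but 86.8% of 3391 without TMM, 95.6% of 4776 by limma on log2(TPM + 1) and 55.0% of 569 with an offset for transcript length. Without TMM the median of all genes moved by 0.18, and on log2(TPM + 1) by 0.30. The count was 296 without CT-NK replicate 5 and 249 without CT-NK replicates 4 and 5, with 21.7% higher. The other groups enter the filter, the scaling and the estimate of spread. Leaving out 1 of their libraries gave from 485 calls (without CT-HK replicate 3) to 1503 (without KO-NK replicate 3, 24971 genes tested). It gave 960 without CT-HK replicate 6 (25594 tested). Of all 23 libraries, KO-NK replicate 3 held the most on chemosensory receptor genes (9123 CPM before TMM scaling). CT-HK replicate 6 held the most on proximal tubule markers (45363 CPM). Whether these properties account for the counts was not tested.

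**Figure D2:**
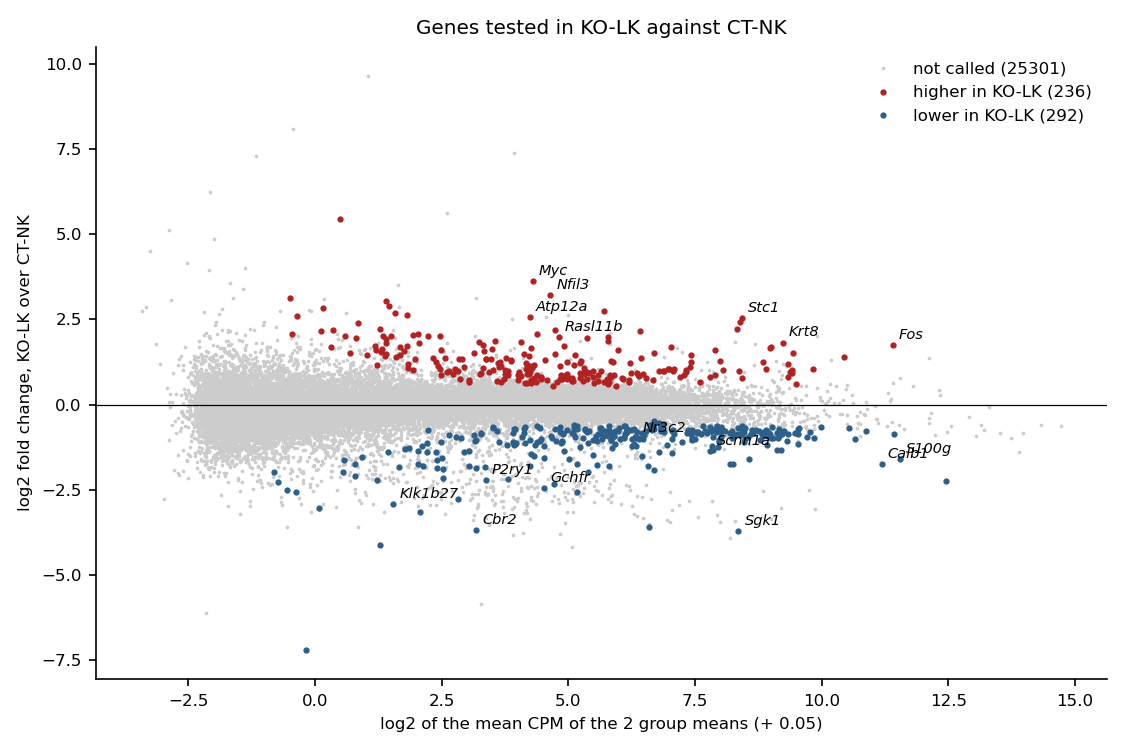
Each point is a gene. The horizontal axis is the log2 of the mean CPM over both groups (with 0.05 added) and the vertical axis the log2 fold change of KO-LK over CT-NK. Red points are the 236 genes that rose and blue points the 292 that fell. Sgk1 stands at -3.72 and Myc at 3.62.

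Sgk1, the aldosterone-induced kinase, had the smallest p of all genes. It stood at 729, 667, 559, 524 and 562 CPM in the controls and 30.3, 40.9, 44.1, 45.1, 62.7 and 53.3 CPM in KO-LK (ENSMUSG00000019970, GRCm38 chromosome 10, 21882184 to 21999903, plus strand). No KO-LK library came near the lowest control. The mean fell 13.2-fold (-3.72, SE 0.36, adjusted p = 4.2e-06), and the call held under all 25 alternatives, with values of -3.82 to -3.24. The receptor binds DNA as a pair at inverted copies of AGAACA, which read AGAACA, any 3 bases and TGTTCT when both copies are whole. Among promoter windows of RefSeq (GRCm38.p6, 250 bases before to 50 after a start), 83 of the 109 genes chosen by the naming rule had one, and 6 belonged to Sgk1. The window at chr10:21993640-21993939, plus strand, which lies inside the annotated gene at an alternative start, is shown because it holds that full motif (in capitals) 189 bases before the start:
Sgk1: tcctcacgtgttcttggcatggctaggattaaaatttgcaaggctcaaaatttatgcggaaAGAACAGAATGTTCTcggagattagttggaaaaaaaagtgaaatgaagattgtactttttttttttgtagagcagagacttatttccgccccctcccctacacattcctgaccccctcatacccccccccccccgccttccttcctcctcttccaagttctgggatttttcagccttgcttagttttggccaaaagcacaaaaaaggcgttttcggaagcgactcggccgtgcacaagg
Only 3 of 32851 windows of this length (0.00913%) held the motif on either strand, those of Sgk1, Acnat2 and a predicted gene. A match in letters is a description and does not show that the receptor binds there.

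Targets of mineralocorticoid and glucocorticoid receptors moved in both directions. Of 33 such genes, all tested, 10 fell and 5 rose, and 8 and 6 had groups without overlap in the matching directions. Of all genes tested, 1.13% fell and 0.914% rose, and 1.46% and 1.01% had no overlap in those directions. Their median was 0.01, against -0.04 for all genes tested. Several of these genes respond to both receptors, and the list was drawn up with earlier results of these data known. On log2(TPM + 1) limma called 15 higher and 8 lower, and without the chemosensory-rich libraries, which left 3 libraries in each group, 1 rose and 6 fell.

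Some genes known from glucocorticoid action fell. Klf15, a Kruppel-like transcription factor, was at 90.9, 54.4, 46.7, 48.4 and 89.5 CPM in CT-NK and 23.2, 25.2, 18.8, 21.1, 28.6 and 25.8 CPM in KO-LK, with no overlap (-1.47, SE 0.21, adjusted p = 0.000335). Fkbp5, a co-chaperone that restrains corticosteroid receptors, was at 80, 23.4, 32.1, 42.4 and 40.7 CPM in CT-NK and 15, 18.5, 20.2, 15.1, 21 and 11.4 CPM in KO-LK (-1.37, SE 0.27, adjusted p = 0.00662). CT-NK replicate 1 held the highest Fkbp5 level and no KO-LK library reached the lowest CT-NK library. The call of Fkbp5 ended with proximal tubule and thick ascending limb markers as covariates (adjusted p = 0.105). Nr3c1, the glucocorticoid receptor itself, had groups that overlapped (29.1 ± 8.41 CPM in CT-NK, 35.6 ± 7.23 in KO-LK, SD; 0.29, SE 0.21, adjusted p = 0.7), and its value on log2(TPM + 1) was 0.64 (adjusted p = 0.00598, limma). Hsd11b2, the enzyme that inactivates glucocorticoids and so reserves the receptor for aldosterone, showed a log2 difference of 0.09, SE 0.24, adjusted p = 0.999.

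Metallothioneins, small metal-binding proteins, were also lower. Mt1 was at 776, 844, 392, 340.3 and 489.7 CPM in CT-NK and 165, 178, 196, 229, 202 and 152 CPM in KO-LK, and Mt2 at 115, 136, 48.5, 42.3 and 91.3 CPM and 17.7, 27.7, 23.1, 31.5, 27.9 and 21.4 CPM. Neither gene had groups that overlapped, and CT-NK replicates 3 and 4 were the lowest controls for both. Mt1 fell by 1.60 (SE 0.25) and Mt2 by 1.80 (SE 0.28), each with adjusted p = 0.000903. Without the chemosensory-rich libraries the adjusted p was 0.0574 for Mt1 and 0.0547 for Mt2. Their RefSeq promoter windows (chr8:94178839-94179138 and chr8:94172368-94172667, both plus strand) are shown because the genes are neighbours that fell together and because both windows hold several short motifs of the kind that a metal-sensing factor reads, TGCGCNC or TGCACNC on either strand (capitals):
Mt1: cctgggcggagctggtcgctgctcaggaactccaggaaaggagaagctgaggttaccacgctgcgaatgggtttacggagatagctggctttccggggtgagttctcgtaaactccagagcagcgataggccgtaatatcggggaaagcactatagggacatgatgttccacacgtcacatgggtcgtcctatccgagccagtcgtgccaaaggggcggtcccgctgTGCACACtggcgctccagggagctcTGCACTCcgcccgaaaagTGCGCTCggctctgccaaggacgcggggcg
Mt2: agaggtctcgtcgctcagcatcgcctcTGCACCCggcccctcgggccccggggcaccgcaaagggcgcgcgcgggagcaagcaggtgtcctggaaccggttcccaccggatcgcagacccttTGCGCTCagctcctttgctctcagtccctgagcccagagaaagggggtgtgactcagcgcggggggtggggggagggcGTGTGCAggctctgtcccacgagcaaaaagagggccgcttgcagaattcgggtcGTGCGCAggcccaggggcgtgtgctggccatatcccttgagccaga
Mt1 held 3 matches and Mt2 held 4. At least 1 match was in 25.7% of all windows and 3 or more in 1.97%. Mt2 also overlaps an annotated antisense gene on the other strand, whose reads cannot be told apart here.

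Other targets rose. Pdk4, the kinase that switches off pyruvate dehydrogenase, was at 10.4, 10.8, 30.9, 11.3 and 7.54 CPM in CT-NK and 57.4, 31.6, 53.9, 31.1, 56 and 48.1 CPM in KO-LK. CT-NK replicate 3 stood apart from the other controls and almost reached the lowest KO-LK library (1.71, SE 0.33, adjusted p = 0.00552). Edn1, which encodes endothelin-1, a peptide that lowers sodium uptake in the collecting duct, rose from 2.19 ± 1.15 to 8.80 ± 2.15 CPM (SD; 2.01, SE 0.33, adjusted p = 0.00147). Cdkn1a, an inhibitor of the cell cycle, averaged 26.7 ± 9.36 CPM in CT-NK and 51.1 ± 5.27 CPM in KO-LK, a log2 rise of 0.94, SE 0.18, adjusted p = 0.00541. The calls of Pdk4, Edn1 and Cdkn1a ended without the chemosensory-rich libraries (adjusted p = 0.294, 0.0528 and 0.0942), and that of Pdk4 also without CT-NK replicates 4 and 5.

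The epithelial sodium channel was examined by subunit and regulator. Of 21 tested genes of this list, 4 fell and 2 rose, with a median of 0.05. Scnn1a, the alpha subunit (ENSMUSG00000030340, GRCm38 chromosome 6, 125320659 to 125344943, plus strand), was at 349, 287, 479.6, 333 and 163 CPM in CT-NK and 105, 100.02, 92.4, 203, 122 and 124 CPM in KO-LK. KO-LK replicate 4 (203 CPM) lay above CT-NK replicate 5 (163 CPM), and the remaining libraries of the groups were apart. The mean fell 2.59-fold (-1.38, SE 0.26, adjusted p = 0.00511). Scnn1b, the beta subunit, was at 1442, 1119, 1362, 753 and 657 CPM in CT-NK and 972, 1066, 854, 1334, 1083 and 1115 CPM in KO-LK (0.01, SE 0.23, adjusted p = 0.999). Its KO-LK libraries lay within the range of the controls. Scnn1g, the gamma subunit, was at 1364, 717, 1021, 681 and 763 CPM in CT-NK and 1406, 1149, 1269.7, 1670, 1611 and 1221 CPM in KO-LK (0.61, SE 0.21, adjusted p = 0.159), and DESeq2 called it higher (0.59, adjusted p = 0.039). Compared per length, mean TPM were 75.8 ± 30.2 for Scnn1a, 342 ± 112 for Scnn1b and 231 ± 43.8 for Scnn1g in CT-NK (SD), against 37.9 ± 13.6, 435 ± 66.1 and 455 ± 51.8 in KO-LK. On this scale Scnn1a was the lowest of the subunits in both groups.

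Regulators of the channel split. Nedd4l, the ubiquitin ligase that removes it, was at 290.2, 175, 303, 191 and 154 CPM in CT-NK and 417, 395, 361, 504, 527 and 427 CPM in KO-LK, with no overlap (0.98, SE 0.19, adjusted p = 0.00478). Prr5l, a binding partner of the kinase complex mTORC2, was at 22, 21.6, 25.4, 14.2 and 23.9 CPM in CT-NK and 42.1, 40.7, 37.1, 65.8, 53.9 and 45 CPM in KO-LK (1.15, SE 0.18, adjusted p = 0.000756). Every KO-LK library of both genes stood above every control. Usp2, a deubiquitinase induced by aldosterone, was at 213, 166, 172, 141 and 193 CPM in CT-NK and 82, 55.8, 96.1, 136, 94.4 and 60 CPM in KO-LK (-1.02, SE 0.20, adjusted p = 0.00586). Without the chemosensory-rich libraries the calls of Scnn1a (adjusted p = 0.186), Nedd4l (0.0694) and Usp2 (0.0861) ended. That of Nedd4l also ended without CT-NK replicates 4 and 5 (0.77, adjusted p = 0.0964) and with the tubule segment covariates (0.77, adjusted p = 0.0965).

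**Figure D3:**
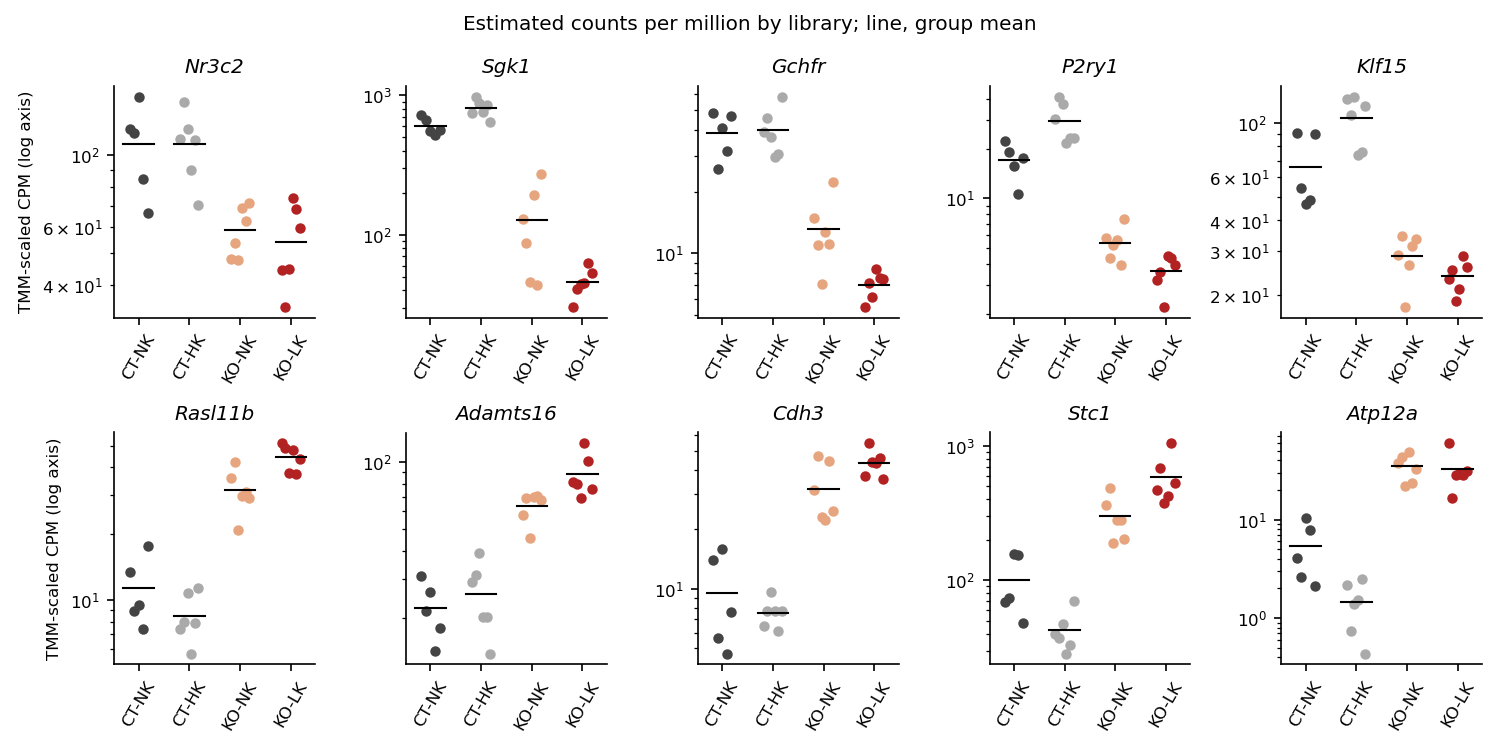
CPM of 10 genes in every library (log axes), with the group mean as a line. In each panel the groups are CT-NK, CT-HK, KO-NK and KO-LK from left to right. Sgk1, Gchfr, P2ry1 and Klf15 are lower in all 6 KO-LK libraries than in all 5 CT-NK libraries, Rasl11b, Adamts16, Cdh3, Stc1 and Atp12a are higher, and Nr3c2 overlaps.

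Of the genes for potassium transport, 1 of 24 rose and 1 fell (median -0.25), against 0.914% and 1.13% of all genes tested. Atp12a, the catalytic subunit of the colonic proton-potassium pump, was at 4.09, 2.61, 10.4, 7.81 and 2.13 CPM in CT-NK and 59.9, 16.4, 28.6, 29.3, 28.5 and 31.3 CPM in KO-LK. The lowest KO-LK library, replicate 2, exceeded the highest control, and replicate 1 stood above the other KO-LK libraries. Its mean rose 5.97-fold (2.58, SE 0.43, adjusted p = 0.00165); the call ended without the chemosensory-rich libraries (2.16, adjusted p = 0.117) and with proximal tubule and thick ascending limb markers as covariates (1.97, adjusted p = 0.0597). Kcne1, an accessory potassium channel subunit, was at 802, 732, 744, 446 and 395 CPM in CT-NK and 304, 354, 326, 388, 413 and 374 CPM in KO-LK (-0.79, SE 0.20, adjusted p = 0.038). CT-NK replicate 5 lay inside the KO-LK range, and leaving out any of KO-LK replicates 1, 3 and 4 or CT-NK replicates 1, 2 and 3 ended this call. The call of Kcne1 also ended without the chemosensory-rich libraries (-0.74, adjusted p = 0.218), and it held in 12 of 25 alternatives.

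Kcnj1, the channel through which principal cells secrete potassium, did not pass the test. It was at 833, 367, 666, 486 and 569 CPM in CT-NK and 839, 936, 705, 905, 1164 and 802 CPM in KO-LK, with CT-NK replicate 1 among the KO-LK values (0.61, SE 0.23, adjusted p = 0.204). On log2(TPM + 1) limma called it higher (0.98, adjusted p = 0.000405), and so did edgeR without TMM (0.84, adjusted p = 0.00162). Kcnma1, the large-conductance channel of flow-induced secretion, was barely detected at 0.560 to 3.29 CPM in CT-NK and 0.214 to 3.78 CPM in KO-LK. The basolateral channel subunits Kcnj10 (-0.60, SE 0.19, adjusted p = 0.107) and Kcnj16 (0.07, SE 0.18, adjusted p = 0.999) were not called, nor was Atp1b1, a subunit of the sodium-potassium pump (-0.32, SE 0.18, adjusted p = 0.54). DESeq2 called Kcnj10 (-0.63, adjusted p = 0.0177) lower.

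In the WNK pathway, which senses potassium in the neighbouring distal convoluted tubule, Nr3c2 was the single called gene among 15. Wnk1 showed a log2 difference of -0.40, SE 0.29, adjusted p = 0.704 and Wnk4 at -0.0039, SE 0.28, adjusted p = 0.999. The pathway controls the thiazide-sensitive cotransporter, whose gene Slc12a3 was at 9.28, 6.88, 5.84, 29.6 and 601 CPM in CT-NK and 396, 599.95, 9.80, 40.4, 525 and 4.94 CPM in KO-LK. In CT-NK replicate 5 alone was high, while KO-LK mixed 3 high and 3 low libraries, and the difference did not pass the test (1.01, SE 1.32, adjusted p = 0.97). Its size rested on that control: the value was 4.36 (adjusted p = 0.21) without CT-NK replicate 5 and 5.16 (adjusted p = 0.236) without replicates 4 and 5.

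Calcium-binding proteins of the connecting tubule were far lower. Calb1, which encodes calbindin D28k, was at 4773, 3072, 3909.8, 3462 and 2681 CPM in CT-NK and 596, 861, 987, 1271, 1704 and 1002 CPM in KO-LK (-1.74, SE 0.32, adjusted p = 0.00379). S100g, which encodes calbindin D9k, was at 4353, 5215, 5611, 3629.7 and 3560.1 CPM in CT-NK and 967, 2198, 540.1, 1249.7, 2509 and 1394 CPM in KO-LK (-1.60, SE 0.34, adjusted p = 0.0107). Neither gene had overlapping groups, and within KO-LK replicate 5 was the highest for both. Trpv5, the apical calcium channel of the same cells, went the other way, at 282, 105, 123, 112 and 117 CPM in CT-NK and 316, 584, 366, 318, 348 and 226 CPM in KO-LK (1.28, SE 0.31, adjusted p = 0.028). CT-NK replicate 1 stood apart from the other controls and above 1 KO-LK library. Leaving out any 1 of CT-NK replicates 2 to 5 ended the call of Trpv5, as did the tubule segment covariates (1.01, adjusted p = 0.333) and leaving out the chemosensory-rich libraries (1.26, adjusted p = 0.196). Without the chemosensory-rich libraries Calb1 (-1.56, adjusted p = 0.0681) and S100g (-1.18, adjusted p = 0.167) were not called. In all, 2 of 17 calcium transport genes fell and 1 rose (median 0.02), against 1.13% and 0.914% of all genes tested. S100g lies opposite Ctps2 on the other strand, which was not called (0.21).

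Stc1 encodes stanniocalcin-1, a secreted glycoprotein named for its role in calcium balance in fish. It was at 69.3, 73.5, 155, 155 and 48.3 CPM in CT-NK and 465, 683, 374, 426, 1046 and 526 CPM in KO-LK (ENSMUSG00000014813, GRCm38 chromosome 14, 69029238 to 69041804, plus strand). Every KO-LK library stood far above the highest control. Its mean rose 5.85-fold (2.55, SE 0.35, adjusted p = 0.000269). An antisense gene that overlaps Stc1 was also called higher, and unstranded reads of the pair cannot be told apart.

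Tissue kallikreins, serine proteases that the connecting tubule secretes into urine, were mostly lower. Of 14 genes 8 fell and none rose, with a median of -1.67, and 10 had groups without overlap. Over all genes tested, 1.13% fell and 1.46% had every KO-LK library below every CT-NK library. Summed over the family, CPM were 28940, 18667, 18091, 22711 and 22615 in CT-NK and 5520, 10872, 2535, 13476, 13140 and 4672 in KO-LK. The highest KO-LK sum was below the lowest control sum, and KO-LK replicates 1, 3 and 6 were the lowest. Klk1b3 fell by 2.15 (SE 0.31, adjusted p = 0.000407), Klk1b8 by 1.57 (SE 0.26) and Klk1b27 by 2.93 (SE 0.54, adjusted p = 0.0038). These paralogs are close copies that can share reads, so the values of single members are uncertain. Without the chemosensory-rich libraries 1 of 13 tested kallikreins was called, though all 13 stayed negative.

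Markers of the cell types of this segment were called in few cases. Of 19 principal cell markers 2 rose, both of them keratins (Krt8 and Krt18), and the median was 0.35. The water channel genes Aqp2 (3043 ± 1200.1 CPM in CT-NK, 1959 ± 537 in KO-LK, SD; -0.64, SE 0.33, adjusted p = 0.452) and Aqp3 (0.04, SE 0.29, adjusted p = 0.999) were not called. None of 15 alpha intercalated markers was called (median -0.09). Slc4a1, their chloride-bicarbonate exchanger, showed a log2 difference of -0.21, SE 0.45, adjusted p = 0.999. In the beta intercalated list 1 of 12 fell (median 0.16), Spink8, a Kazal-type protease inhibitor, which was at 472, 488, 618, 358 and 304 CPM in CT-NK and 125, 129.8, 126, 152, 152 and 122 CPM in KO-LK (-1.74, SE 0.22, adjusted p = 0.000146). Every KO-LK library of Spink8 was below every control, and the KO-LK libraries lay close together. Slc26a4, which encodes pendrin, the apical exchanger of the same cells, showed a log2 difference of 0.14, SE 0.23, adjusted p = 0.997. The 10 distal convoluted tubule markers summed to 1304 to 2746 CPM in KO-LK and 3385 to 5404 CPM in CT-NK, a sum that includes Calb1, the single member called. None of 21 subunits of the vacuolar proton pump was called.

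Genes of local signalling were among those of smallest p that fell. Gchfr, the protein that feeds back on GTP cyclohydrolase, the first enzyme of tetrahydrobiopterin synthesis, was at 48.5, 25.8, 41.1, 31.7 and 46.7 CPM in CT-NK and 5.46, 7.17, 6.09, 8.35, 7.58 and 7.48 CPM in KO-LK (-2.46, SE 0.24, adjusted p = 4.2e-06; ENSMUSG00000046814, GRCm38 chromosome 2, 119167773 to 119172390, plus strand). P2ry1, a receptor for ADP, was at 22.1, 19, 15.7, 10.6 and 17.5 CPM in CT-NK and 3.18, 3.57, 2.19, 4.46, 4.34 and 3.95 CPM in KO-LK (-2.23, SE 0.23, adjusted p = 7.81e-06). Ptgfr, the receptor for prostaglandin F2 alpha, was at 167, 131, 127, 82.3 and 140.3 CPM in CT-NK and 49.3, 37.3, 50.7, 47.4, 47.2 and 42.3 CPM in KO-LK (-1.50, SE 0.23, adjusted p = 0.000602). In these 3 genes no libraries overlapped, the KO-LK values lay close together, and the call held under every alternative tried.

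Smaller differences were called in the same pathways. Ddah1, which degrades a natural inhibitor of nitric oxide synthase, fell from 108 ± 43.2 to 48.3 ± 13.5 CPM (SD; -1.16, SE 0.28, adjusted p = 0.0301). Hpgd, which inactivates prostaglandins, fell from 19.3 ± 2.37 to 11.6 ± 2.08 CPM (-0.73, SE 0.19, adjusted p = 0.0418). P2ry14, a receptor for UDP-sugars, rose from 13.1 ± 5.22 to 24.2 ± 3.67 CPM (0.89, SE 0.22, adjusted p = 0.0358). Its gene lies opposite Med12l on the other strand. Among 18 tested endothelin and nitric oxide genes 1 rose and 2 fell (median -0.20), and among 21 purinergic and prostaglandin genes 1 rose and 2 fell (median 0.17). The calls of Ddah1 and Hpgd each ended without any 1 of several libraries, among them CT-NK replicates 4 and 5. That of P2ry14 ended without KO-LK replicate 3 or CT-NK replicate 1, 4 or 5. Each of these calls also ended with the tubule segment covariates, without the chemosensory-rich libraries and without CT-NK replicates 4 and 5 together. Of the 25 alternatives, P2ry14 kept its call in 17, Ddah1 in 14 and Hpgd in 8.

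Immediate early genes, which are switched on within minutes by growth factors, stress or tissue handling, were among the genes that rose. Of 27 tested, 8 rose and none fell (median 1.25), and 7 had groups without overlap. Among all genes tested, 0.914% rose and 1.01% had every KO-LK library above every CT-NK library. Their summed CPM were 8529, 7654, 7289, 3400 and 1801 in CT-NK and 17589, 10972, 19479, 16558, 14966 and 11511 in KO-LK. Every KO-LK sum exceeded every control sum, and CT-NK replicates 4 and 5, the richest in proximal tubule transcripts, were the lowest. Fos was at 2087, 1808, 1441, 639.9 and 278 CPM in CT-NK and 4491, 2877, 4478, 4816, 4588 and 3729.5 CPM in KO-LK (1.74, SE 0.38, adjusted p = 0.0126). Myc, a transcription factor of growth, was at 1.72, 2.64, 3.92, 5.16 and 1.29 CPM in CT-NK and 40, 23.3, 73.4, 40.9, 16.5 and 23.7 CPM in KO-LK (3.62, SE 0.49, adjusted p = 0.000254). No library overlapped for either gene. Ccn1, a secreted matrix protein, rose by 2.43, SE 0.45 on the log2 scale, Ier5 by 1.25, SE 0.26 and the growth arrest gene Btg2 by 1.38, SE 0.31. The count of called members was 4 without CT-NK replicate 4, 4 without replicate 5, 1 without both and 1 without the chemosensory-rich libraries. Fos was not called with the tubule segment covariates (1.75, adjusted p = 0.0675), without both of those controls (1.23, adjusted p = 0.0713) or without the chemosensory-rich libraries (1.71, adjusted p = 0.186), whereas Myc kept its call under every alternative tried.

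Genes linked to the circadian clock changed in opposite directions, with 1 of 21 higher and 2 lower (median -0.10). Nfil3, a repressor of D-box genes, was at 4.69, 2.67, 8.16, 6.99 and 1.69 CPM in CT-NK and 50.2, 27.9, 70.9, 54.5, 40.2 and 26.2 CPM in KO-LK (3.22, SE 0.46, adjusted p = 0.000375). Dbp, an activator of D-box genes, was at 224, 192, 111, 55.9 and 161 CPM in CT-NK and 45.5, 28.5, 59.3, 64.5, 30.6 and 29.2 CPM in KO-LK (-1.79, SE 0.29, adjusted p = 0.00107). Every library was apart for Nfil3, whereas CT-NK replicate 4 of Dbp lay inside the KO-LK range. Ciart, a repressor of the clock, was at 12.3, 9.96, 2.68, 6.03 and 14.2 CPM in CT-NK and 3.00, 1.46, 2.27, 3.89, 1.67 and 2.23 CPM in KO-LK (-1.90, SE 0.39, adjusted p = 0.00787). CT-NK replicate 3 of Ciart overlapped with KO-LK, and its call ended with the tubule segment covariates (adjusted p = 0.247) and without the chemosensory-rich libraries. The time of day of dissection is not in the labels. The RefSeq promoter of Ciart (chr3:95882179-95882478, minus strand) is shown because it carries 3 copies of CACGTG (capitals), the E-box read by the clock activators, 116, 58 and 44 bases before the start:
Ciart: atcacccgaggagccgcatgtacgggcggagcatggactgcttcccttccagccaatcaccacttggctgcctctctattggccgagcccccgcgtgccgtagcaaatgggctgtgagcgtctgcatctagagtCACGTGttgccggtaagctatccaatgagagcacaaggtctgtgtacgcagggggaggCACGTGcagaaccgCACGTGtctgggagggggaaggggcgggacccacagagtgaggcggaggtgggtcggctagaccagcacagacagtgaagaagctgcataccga
The E-box was in 7.15% of all 32851 windows, and 3 or more copies were in 29 of them (0.0883%).

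Some keratins, adhesion proteins and injury-associated genes rose. Of 20 tested members of this list 5 rose and none fell (median 0.65). Krt8, a keratin of simple epithelia, was at 348, 263, 319, 239.8 and 161 CPM in CT-NK and 1261, 1043, 1289.6, 988, 559 and 491 CPM in KO-LK (1.82, SE 0.27, adjusted p = 0.000589). Its partner Krt18 was at 308, 233, 314, 239.7 and 121 CPM and 939, 808, 1052, 832, 511 and 478 CPM (1.66, SE 0.26, adjusted p = 0.000905). Cdh3, which encodes P-cadherin, was at 14, 5.62, 15.8, 4.70 and 7.64 CPM in CT-NK and 37.2, 54.6, 43.8, 43.4, 45.8 and 36 CPM in KO-LK (2.19, SE 0.28, adjusted p = 0.00017). None of these had overlapping groups, and KO-LK replicates 5 and 6 were the lowest of their group for both keratins. Lmna, a nuclear lamin, averaged 53.6 ± 6.79 CPM in CT-NK and 154 ± 57.8 CPM in KO-LK (SD; 1.53, SE 0.24, adjusted p = 0.00105). Outside the list, Itgb6, an integrin subunit of epithelia, was at 46.5, 38, 74, 46.5 and 37.4 CPM in CT-NK and 137, 124, 80, 143, 156 and 112 CPM in KO-LK (1.37, SE 0.22, adjusted p = 0.000905). Members of the list were not uniform: their summed CPM were 11306, 6986, 10058, 9545 and 8080 in CT-NK and 8813, 11494, 25585, 31237, 10736 and 6972 in KO-LK, with KO-LK replicates 3 and 4 far above the rest. Without KO-LK replicate 5 or 6 the list had 8 called members.

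The genes of smallest p that rose included several outside these lists. Rasl11b, a small GTPase of the Ras family (ENSMUSG00000049907, GRCm38 chromosome 5, 74195286 to 74199481, plus strand), was at 13.4, 8.94, 9.56, 7.44 and 17.6 CPM in CT-NK and 51.6, 49.1, 37.7, 48, 37.5 and 43.8 CPM in KO-LK, a 3.92-fold rise (1.97, SE 0.22, adjusted p = 3.25e-05). Adamts16, a secreted metalloprotease, was at 30.9, 21.4, 26.2, 14.2 and 18 CPM in CT-NK and 81, 79.3, 68.9, 122, 101 and 75.5 CPM in KO-LK (1.99, SE 0.24, adjusted p = 8.29e-05). In both, every KO-LK library stood well above the highest control. Rasl11a, a relative of Rasl11b, rose from 13.4 ± 6.72 to 90.5 ± 30.6 CPM (SD; 2.75, SE 0.41, adjusted p = 0.000595), but was not called without the chemosensory-rich libraries (adjusted p = 0.09). Anxa9, an annexin, rose by 2.08, SE 0.28 on the log2 scale, Nrep by 1.85, SE 0.25 and Bex2, at 5.95 to 9.61 CPM in KO-LK, by 2.01, SE 0.28. Ache, which encodes acetylcholinesterase, was at 35.5, 27.5, 29.1, 15.7 and 11.3 CPM in CT-NK and 67.4, 90.2, 110.3, 105, 80.6 and 64.2 CPM in KO-LK (1.86, SE 0.28, adjusted p = 0.000586). Nuak2, a kinase related to AMPK, was at 133, 127, 76.7, 105 and 124 CPM in CT-NK and 736, 329, 624, 593, 403 and 505 CPM in KO-LK (2.23, SE 0.33, adjusted p = 0.000586). All but Rasl11a kept the call under every alternative tried.

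**Figure D4:**
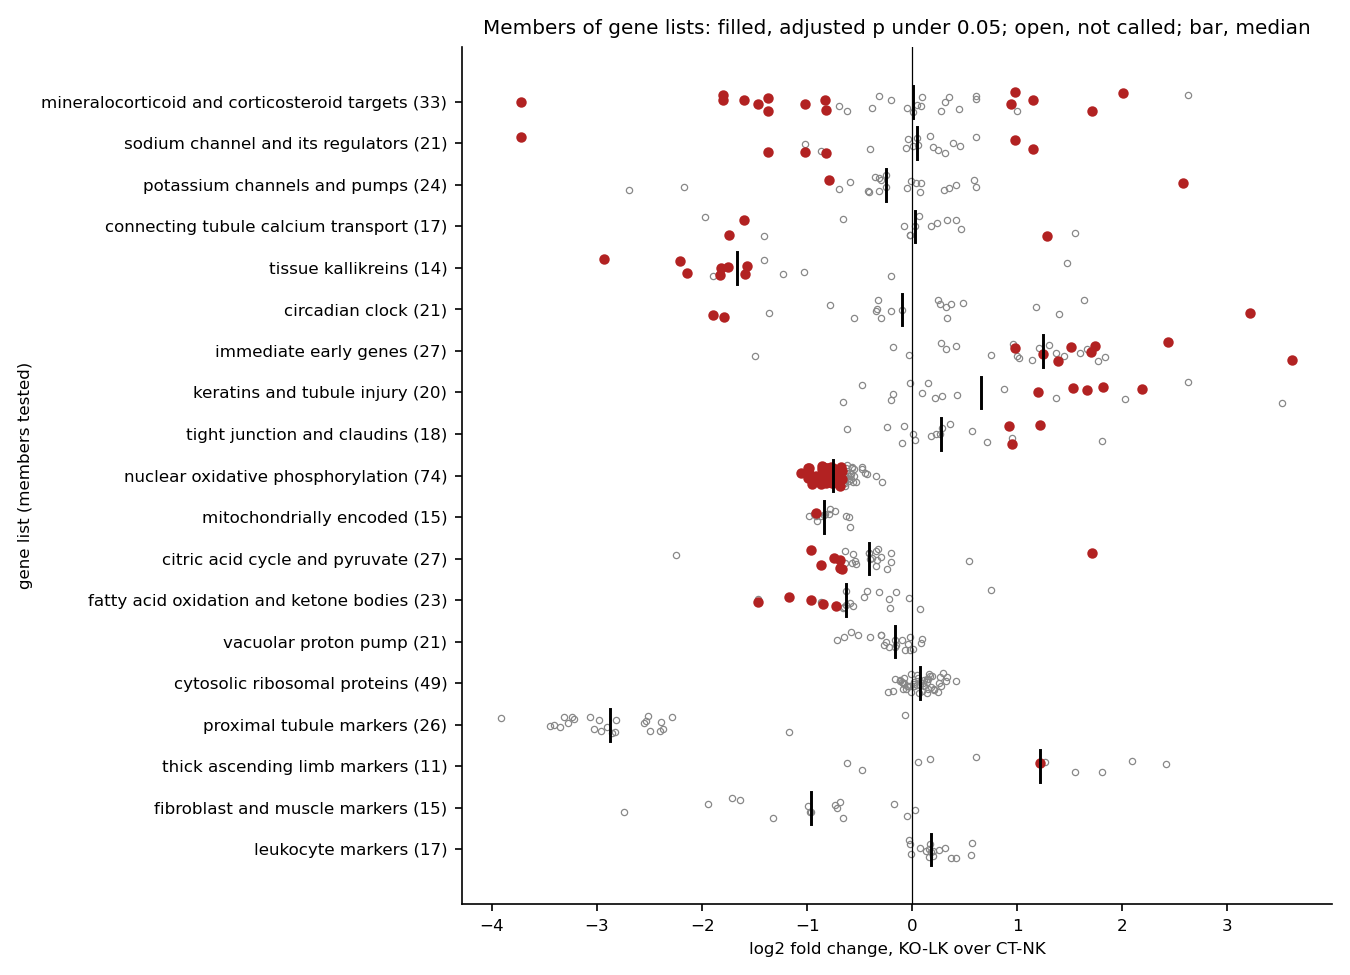
Log2 fold changes of KO-LK over CT-NK (horizontal axis) for the tested members of 19 gene lists (vertical axis, number tested in brackets). Filled red points passed an adjusted p of 0.05, open points did not, and black bars are list medians. All 74 nuclear oxidative phosphorylation genes lie below 0, as do all 26 proximal tubule markers, of which none passed.

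Genes of mitochondrial energy production were lower in KO-LK. Of 74 tested nuclear genes for oxidative phosphorylation, 45 fell and none rose, and all 74 had negative values with a median of -0.75 (53.8% of all genes tested had a negative value). In 39 of them no libraries overlapped. Over all genes tested, 1.13% fell and 1.46% had every KO-LK library below every CT-NK library. Their summed CPM were 47050, 37097, 48732, 34676 and 39943 in CT-NK and 23362, 28322, 20473, 26862, 30267 and 22926 in KO-LK. The highest KO-LK sum, of replicate 5, stayed below the lowest control sum, of replicate 4. Under every scaling the median was negative, and on log2(TPM + 1), where 72 of 74 were negative, it was -0.36. The number called was 35 without CT-NK replicates 4 and 5, 23 without CT-NK replicate 3, 28 without CT-NK replicate 1, 29 without KO-LK replicate 3, 27 with the tubule segment covariates and 8 without the low-count filter.

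Members came from several complexes. Sdhc of complex II was at 232, 243, 253, 199.6 and 227 CPM in CT-NK and 96.3, 130.5, 85.9, 127, 138 and 118 CPM in KO-LK (-0.99, SE 0.16, adjusted p = 0.000903). Uqcrfs1, the iron-sulphur protein of complex III, was at 801, 793, 839, 664 and 671 CPM in CT-NK and 356, 405, 287, 436, 429 and 369.9 CPM in KO-LK (-0.99, SE 0.17, adjusted p = 0.00213). Atp5g1, a subunit of the ATP synthase rotor, was at 866, 972, 984, 683 and 789 CPM in CT-NK and 384, 529.8, 317, 405, 457 and 376 CPM in KO-LK (-1.06, SE 0.19, adjusted p = 0.00244). Cox7a1, a subunit of complex IV that was not in the list of 74, fell most among the energy genes named here. It went from 73, 54.9, 68.3, 43.7 and 39.8 CPM in CT-NK to 17.1, 21.7, 9.04, 15, 19.6 and 17.1 CPM in KO-LK (-1.75, SE 0.23, adjusted p = 0.00017). No library overlapped in any of these, and all 4 kept their call under every alternative tried. Sdhb of complex II (-0.99, SE 0.18) and Ndufb8 of complex I (-0.93, SE 0.17) also fell. All 15 genes of the mitochondrial chromosome had negative values (median -0.84) and 1 was called, mt-Nd4l (-0.92, SE 0.24, adjusted p = 0.0495), which shares sequence with mt-Nd4. This call was borderline: it held in 8 of 25 alternatives and was lost in 8 of the 11 that left out 1 library (all but those without KO-LK replicate 5 or CT-NK replicate 2 or 3). DESeq2 called 13 of the 15 lower. Sums of mitochondrial transcripts overlapped between groups, at 204300, 91901, 140800, 155750 and 222620 CPM in CT-NK and 76074, 68124, 107310, 113580, 141620 and 73672 CPM in KO-LK.

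Some genes of the pathways that feed the respiratory chain fell as well. In the citric acid cycle and pyruvate list 6 of 27 fell and 1, Pdk4, rose (median -0.41). Mpc1, a subunit of the pyruvate carrier, was at 519, 487, 499, 427 and 592 CPM in CT-NK and 279, 294, 213, 309.8, 324 and 244 CPM in KO-LK (-0.86, SE 0.16, adjusted p = 0.00511). Idh2 (-0.97, SE 0.20), Idh3g (-0.74, SE 0.16) and Fh1 (-0.67, SE 0.17), enzymes of the cycle, also fell. The summed CPM of that list were 11806, 6592, 10906, 8854 and 9847 in CT-NK and 6127, 6399, 5193, 7232, 7751 and 5752 in KO-LK, and CT-NK replicate 2 lay inside the KO-LK range. Of 23 genes of fatty acid oxidation and ketone body metabolism 5 fell and none rose (median -0.63). Their sums overlapped in the same way, at 7886, 4361, 6892, 5734 and 6734 CPM in CT-NK and 4130, 4189, 3292, 4720, 4821 and 3623 CPM in KO-LK. Oxct1, which lets cells use ketone bodies, was at 1228, 674, 1203, 971 and 1089 CPM in CT-NK and 440.3, 466, 301, 543, 595 and 405 CPM in KO-LK (-1.17, SE 0.21, adjusted p = 0.00316). Echs1 of beta oxidation fell by 0.97 (SE 0.15) and Bdh1, a ketone body dehydrogenase, by 1.47 (SE 0.25). Echs1, Oxct1, Bdh1 and Mpc1 kept their calls under every alternative tried, whereas Fh1 lost its call without KO-LK replicate 3 or CT-NK replicate 1, 3, 4 or 5, and Idh2 and Idh3g without CT-NK replicates 4 and 5 together. In glycolysis 3 of 19 fell, Gapdh (-0.87, SE 0.20), Pgam1 (-0.68, SE 0.16) and Aldoc (-0.95, SE 0.23). Gapdh kept its call in 20 of 25 alternatives (lost, among others, without KO-LK replicate 3 or CT-NK replicate 3), Pgam1 in 16 (lost without CT-NK replicate 3) and Aldoc in 13 (lost without any 1 of KO-LK replicates 3 to 6 or CT-NK replicates 1, 3 and 5). The median of the glycolysis list was -0.40 but 0.02 on log2(TPM + 1).

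Enzymes of amino acid and carbonyl metabolism completed the falls of smallest p. Bcat2, the mitochondrial branched-chain aminotransferase, was at 461, 277, 375, 298 and 337 CPM in CT-NK and 159, 155, 104, 158, 177 and 134 CPM in KO-LK (-1.24, SE 0.19, adjusted p = 0.000599), and an antisense gene that overlaps it was called lower too. Gcat, which acts in threonine breakdown, fell by 1.27 (SE 0.19), Kyat3, a kynurenine aminotransferase, by 1.07 (SE 0.15) and Slc25a29, a mitochondrial carrier of basic amino acids, by 1.50 (SE 0.20). Dcxr, a reductase of dicarbonyls and xylulose, was at 192, 169, 181, 161 and 262 CPM in CT-NK and 82.9, 61.4, 56.7, 78.1, 80.8 and 71 CPM in KO-LK (-1.42, SE 0.20, adjusted p = 0.000282). Cbr2, a carbonyl reductase, was at 7.33, 24.2, 25.7, 4.57 and 22.3 CPM in CT-NK and 1.88, 0.692, 1.19, 0.687, 1.03 and 2.32 CPM in KO-LK (-3.69, SE 0.52, adjusted p = 0.000364). CT-NK replicates 1 and 4 of Cbr2 were well below the other controls but above every KO-LK library. Vegfb, a growth factor of the VEGF family, fell by 1.00 (SE 0.15). No library of these 7 genes overlapped between groups, and all kept the call under every alternative tried. Cytosolic ribosomal protein genes had no called member among 49 (median 0.07).

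To separate the diet from the deletion within knockout mice, KO-LK was set against KO-NK, in which genotype and doxycycline are shared. Of 25829 genes none passed an adjusted p of 0.05 (0%), with 732 (2.83%) at an unadjusted p below 0.05, in edgeR. DESeq2 called 24 genes, edgeR called 10 when only genes with 5 CPM in 5 libraries were tested, and limma on log2(TPM + 1) called 1. The DESeq2 calls included predicted genes with extreme log2 fold changes, of 21.7 to 23.7 and of -21.7. They also included Cbr2 (-2.44, adjusted p = 0.00156), and edgeR with that filter called Vegfb (-0.52, adjusted p = 0.049). Both genes also fell against CT-NK. The lowest adjusted p in edgeR was 0.191. The genes described for this comparison were chosen after their values were seen.

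Sgk1 was at 130, 86.9, 46, 193, 43.9 and 272 CPM in KO-NK, against 46.1 ± 11 CPM (SD, n = 6) in KO-LK. KO-NK replicates 3 and 5 lay among the KO-LK libraries and the other 4 above them (KO-LK over KO-NK -1.48, SE 0.32, adjusted p = 0.244). DESeq2 called this difference (-1.50, adjusted p = 0.0077). Pdk4 was at 116, 232, 96.4, 149, 72.2 and 132 CPM in KO-NK, above every KO-LK library (-1.52, SE 0.30, adjusted p = 0.191), so that its mean of 46.4 ± 12 CPM in KO-LK stood between those of CT-NK (14.2 ± 9.46) and KO-NK (133 ± 55.7). DESeq2 also called Ddit3, Pdk4, Nr1d1 and Aoc1 (adjusted p = 0.000796 for Ddit3 and 0.00251 for the others), and with the stricter filter edgeR called the same 4 genes (0.0353 for Nr1d1 and 0.049 for the others). Ddit3, a stress-induced transcription factor, averaged 139 ± 34.9 CPM in KO-NK and 51 ± 20.4 CPM in KO-LK (-1.45, SE 0.26, adjusted p = 0.191), near its CT-NK mean of 41.8 ± 16.4 CPM. Nr1d1, a clock repressor, averaged 138 ± 33.1 CPM in KO-NK and 63.4 ± 16.9 CPM in KO-LK (-1.12, SE 0.22, adjusted p = 0.191). Aoc1, a diamine oxidase, was higher on average in KO-LK, at 14.7 ± 7.59 CPM against 5.32 ± 1.74 (1.47, SE 0.30, adjusted p = 0.191). Gchfr stood at 14.9, 11, 7.09, 12.6, 11.1 and 22.3 CPM in KO-NK (-0.91, SE 0.23, adjusted p = 0.607), and KO-NK replicate 3 alone lay inside its KO-LK range. Atp12a was at 37.9, 42.9, 21.8, 49.1, 23.5 and 32.7 CPM in KO-NK (-0.10, SE 0.38, adjusted p = 0.964), with groups that overlapped. In edgeR with the default filter none of these differences passed the test, which does not show that the groups are alike.

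**Figure D5:**
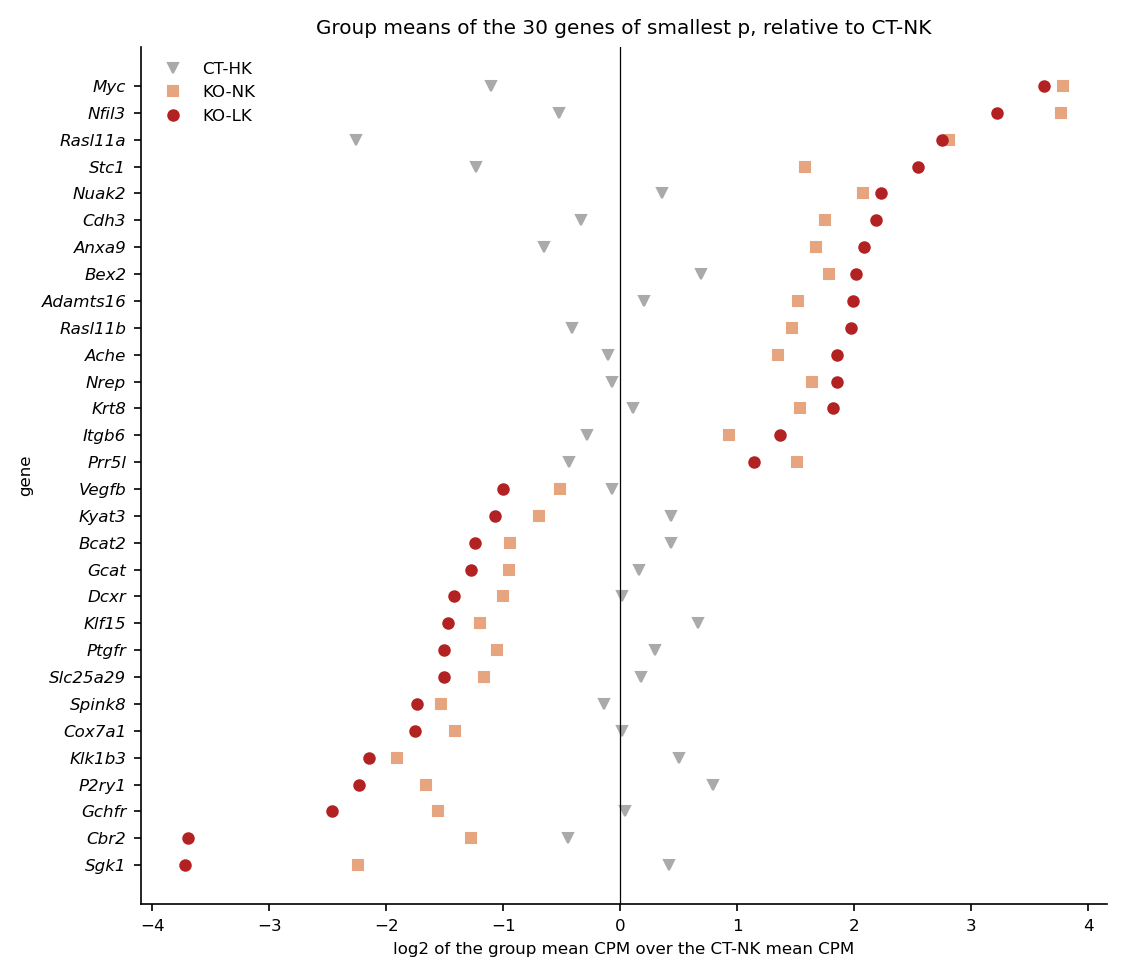
The horizontal axis is the log2 of each group's mean CPM over the CT-NK mean for the 30 genes of smallest p in KO-LK against CT-NK (vertical axis), without error bars. Circles are KO-LK, squares KO-NK and triangles CT-HK. The genes were chosen on KO-LK and all groups share the CT-NK mean, so the side by side values are a description: Sgk1 is at -3.72 in KO-LK.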

How the data were processed

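RNA from dissected connecting tubule and cortical collecting duct was turned into full-length cDNA (SMART-Seq HT) and Nextera XT libraries, per the labels' protocols. Reads were quantified with Salmon 0.14.10 and GRCm38.p6, per the submitters' processing notes; how transcripts were summed per gene, and whether strand was used, is not given in the sources used here. The authors deposited estimated counts from Salmon for 54393 genes, where 35.9% of values are not whole, and the deposited TPM are scaled by transcript length and library.

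The estimated counts, rounded to whole numbers, went into edgeR 4.0.16 under R 4.3.3. TMM factors were applied, genes passed filterByExpr, and each of the 4 groups had its own mean in a model of all 23 libraries (19 residual degrees of freedom, common biological coefficient of variation 0.56). Contrasts took quasi-likelihood F tests, and p-values were adjusted over 25829 genes by the method of Benjamini and Hochberg. A p-value with no tool named is from this model. Fold changes are log2, and SE is the absolute fold change over the root of F. Gene positions come from the GENCODE annotation of GRCm38, which matched every gene ID, and promoter windows from RefSeq. None of 55 pairs of libraries within or between the groups compared held identical values (0 of 55). The scripts were tested on simulated counts.

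The alternatives were DESeq2 1.42.0, edgeR with the DESeq2 size factors, no TMM, no filter, 5 CPM in 5 libraries as the filter, limma 3.58.1 on log2(TPM + 1) or log2(TPM + 0.1), the compared groups alone, a replicate block, covariates for 2 neighbouring segments, dropping the 8 libraries above 2500 CPM on chemosensory receptors, a transcript length offset, and each library dropped in turn. Chosen after seeing the data were dropping CT-NK replicates 4 and 5 together and dropping single libraries of the remaining groups. A gene's 25 alternatives are the 11 single libraries of the groups compared and 14 other settings. The text names Nr3c2, 15 genes per direction by smallest p (log2 change of 1 or more, 5 CPM or more in the higher group), up to 5 called genes of each of 40 lists by smallest p, and 24 transport genes; predicted genes were passed over, and 2 genes that the rule selects are not reported here. Members, lists and rule were chosen with earlier results of these data known.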

Additional observations from a re-analysis of the deposited data

Results flagged for a closer look

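Among 230 sets of 5 or 6 library values examined, 11 had a single library far from the others of its group. Chance alone gives about 1 in 20, which is near the share flagged here. In CT-NK replicate 3 was high for Anxa9 (14.6 CPM), Rasl11a (24.8 CPM), Itgb6 (74.0 CPM) and Pdk4 (30.9 CPM). CT-NK replicate 1 was high for Trpv5 (282 CPM), Wnk4 (257 CPM) and Dusp4 (5.06 CPM). CT-NK replicate 5 was high for Slc12a3 (601 CPM) and for summed podocyte markers (348 CPM), and it is also the library richest in proximal tubule markers. In KO-LK replicate 4 was high for Scnn1a (203 CPM) and replicate 1 high for Atp12a (59.9 CPM). Whether these libraries differ in dissection, in biology or only by chance was not tested.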

How the results depend on the processing

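The number of genes called in KO-LK against CT-NK was 1381 with DESeq2, 3391 without TMM, 224 without a low-count filter, 2392 on genes with 5 CPM in 5 libraries, 4776 by limma on log2(TPM + 1), 4761 on log2(TPM + 0.1) and 3469 on log2(TPM + 1) without a filter. It was 242 with segment covariates (26.0% higher), 191 without the chemosensory-rich libraries (27.2% higher), 249 without CT-NK replicates 4 and 5, 960 without CT-HK replicate 6, 1503 without KO-NK replicate 3, and 296 (without CT-NK replicate 5) to 736 (without KO-LK replicate 2) when a library of the groups compared was left out. The cause of these differences was not tested. A filter or a left-out library also changes the number of genes or libraries in the test. In KO-LK against KO-NK the counts were 24 with DESeq2, 10 with the stricter filter, 1 in each of the limma settings and with covariates, and 0 to 3 leaving out a library. Nr3c2 lost its call by limma (-0.23 with adjusted p = 0.542 and 0.878 without a filter; -0.23 with 0.538 at the smaller pseudocount), without chemosensory-rich libraries (-0.93, 0.229), with the length offset (-0.58, 0.126) and, leaving out 1 library, without CT-NK replicate 3 (-0.84; range -1.123 to -0.84).

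Replicate numbers were not taken to pair the libraries: deviations of same-numbered KO-LK and CT-NK libraries correlated at -0.63 to 0.13, with 1 of 5 pairs over 0.1 and 1 of 5 libraries nearest its own number. For KO-LK and KO-NK the correlations were -0.42 to 0.54, with 4 of 6 pairs over 0.1 and 1 of 6 nearest its own number, and the block gave 0 calls in that comparison. With the replicate number as a block 448 genes were called in KO-LK against CT-NK, 398 of them among the 528, and Nr3c2 stood at -0.99 (adjusted p = 0.0521).

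Of the 92 named genes that were called, 41 kept the call under all 25 alternatives. Signs changed only among genes that were not called. Scnn1b took -0.0144 with DESeq2, -0.0145 with its size factors, -0.0179 without a filter, -0.0244 with the stricter filter, -0.33 with covariates and -0.29 without CT-NK replicates 4 and 5; Kcnma1 0.20 without TMM, 0.04 with both groups alone, 1.01 with covariates and 0.67 without those replicates; Wnk4 0.23 without TMM, 0.24 by limma, 0.0508 with both groups alone and 0.13 with the block. Atp1b1 took 0.0419 and 0.042 and Slc4a1 0.23 and 0.24 by limma. With covariates and without CT-NK replicates 4 and 5, Aqp3 took -0.16 and -0.34, Slc26a4 -0.0447 and -0.11, and Hsd11b2 -0.21 and -0.24, and Slc26a4 took -0.0309 without chemosensory-rich libraries. Leaving out 1 library, Scnn1b ranged from -0.13 to 0.14, Kcnma1 from -0.36 to 0.31, Wnk4 from -0.13 to 0.40, Aqp3 from -0.14 to 0.22, Hsd11b2 from -0.0661 to 0.25.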

Other observations

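Other gene groups held few called members in KO-LK against CT-NK. Of 18 tight junction genes 3 rose: Cldn8, a claudin of the collecting duct, from 473 ± 118 to 897 ± 251 CPM (SD; 0.92, SE 0.24, adjusted p = 0.0382, edgeR), Cldn16, a claudin of the thick ascending limb, from 7.31 ± 2.10 to 17 ± 2.71 CPM (1.22, SE 0.27, adjusted p = 0.0137), and Cldn6 (0.95, SE 0.24, adjusted p = 0.0388). All 3 lost the call without CT-NK replicate 5, without CT-NK replicates 4 and 5 together and without the chemosensory-rich libraries. They also lost it with the tubule segment covariates (adjusted p = 0.248 for Cldn16, 0.528 for Cldn8 and 0.177 for Cldn6). Of the 25 alternatives, Cldn16 kept its call in 21, and Cldn8 and Cldn6 in 15 each. Summed thick ascending limb markers, which include Cldn16, were higher on average in KO-LK. Among 18 Notch pathway genes Heyl (0.92, SE 0.19) and Jag1 (0.86, SE 0.23) rose and Hes6 (-0.69, SE 0.17) fell. Each of these lost its call without CT-NK replicate 5, with the tubule segment covariates and without the chemosensory-rich libraries. Jag1 also lost it without CT-NK replicate 2, 3 or 4. Hes6 also lost it without KO-LK replicate 1, 3, 4, 5 or 6 or CT-NK replicate 1 or 3. Heyl kept its call in 20 of the 25 alternatives, Jag1 in 17 and Hes6 in 10.

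Stress and inflammatory lists were called in few members. Nfkbiz, a regulator of NF-kappaB targets, was at 39.9, 25.7, 59.3, 22.7 and 8.63 CPM in CT-NK and 150.3, 47.9, 267, 169.6, 120.1 and 77.3 CPM in KO-LK (2.15, SE 0.41, adjusted p = 0.00514), and was the single called member of 20. Its call was lost in 3 of 25 alternatives, with tubule segment covariates (adjusted p = 0.0506), without CT-NK replicates 4 and 5 together (0.0514) and without the chemosensory-rich libraries (0.229). Irf1, the single called member of 22 interferon response genes, was at 58.5, 64.5, 113, 44.6 and 29 CPM in CT-NK and 335, 56.5, 352, 259, 118 and 80.2 CPM in KO-LK (1.69, SE 0.41, adjusted p = 0.0301). KO-LK replicate 2 was the lowest of its group for both genes and lay inside the control range. Irf1 kept its call in 15 of 25 alternatives and lost it, among others, without any 1 of KO-LK replicates 1 and 3 and CT-NK replicates 1, 2, 4 and 5. In the integrated stress list Ppp1r15a rose (1.45, SE 0.28) and Herpud1 fell (-0.82, SE 0.19) among 20, and no heat shock gene of 17 was called (median -0.30). The growth factor feedback list had 2 of 22 higher, the phosphatase Dusp4 (1.61, SE 0.37) and the ligand Tgfa (1.05, SE 0.27). Stard4, a sterol carrier (0.71, SE 0.17), was the single call among 20 cholesterol synthesis genes. Of the 25 alternatives, Ppp1r15a kept its call in 22, Dusp4 in 19, Herpud1 in 18, Stard4 in 15 and Tgfa in 13. The libraries whose omission alone ended a call were CT-NK replicates 2, 4 and 5 for Dusp4, CT-NK replicates 1 and 5 for Herpud1, KO-LK replicate 3 and CT-NK replicates 1, 2, 4 and 5 for Stard4, and KO-LK replicates 1, 3, 5 and 6 and CT-NK replicates 3, 4 and 5 for Tgfa. None of 15 endothelial (median 0.09), 15 tested fibroblast and muscle (-0.96), 17 leukocyte (0.18) or 10 podocyte markers (-0.78) was called.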
